A study of Sus scrofa with 24 samples.

Results

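Colon RNA of sows fed a low-fibre diet with N-carbamylglutamate was compared with colon RNA of sows fed the same low-fibre diet alone. The LN group received 3.73% crude fibre with 0.05% N-carbamylglutamate, hereafter NCG, and the LF group received 3.73% crude fibre without it. A second pair of colon groups, HN with 7.46% crude fibre and 0.05% NCG and HF with 7.46% crude fibre alone, and the ileum of LN and LF sows served for comparison. Diets were fed from breeding through the 114 days of gestation to 100 sows a group, and all libraries are from gestation day 114. The libraries were chosen by their labels alone: 3 LN and 3 LF colon libraries, 6 of the 24 in the series. Whether the 3 libraries of 1 group came from separate sows is not stated, so p-values measure the spread between libraries, which may in part be technical. The labels also do not tie colon and ileum libraries to the same animal, and breed and parity of the sows are not given in the sources used here.

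NCG is a stable analogue of N-acetylglutamate, the obligatory activator of carbamoyl phosphate synthetase 1 (CPS1). CPS1 and ornithine transcarbamylase (OTC) make citrulline in the mitochondria of liver and small-intestinal cells, and argininosuccinate synthase (ASS1) and argininosuccinate lyase turn citrulline into arginine, the substrate of nitric oxide synthases and arginases. The colon takes up water, salts and the short-chain fatty acids that bacteria form from fibre, through an epithelium of colonocytes and goblet cells that stands on a lamina propria rich in lymphocytes and plasma cells and is surrounded by smooth muscle.

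The 6 libraries held 15712591 to 18575695 counts, and a count of 0 in them allows up to 3 counts, or 0.161 to 0.204 CPM, as counting error only. CPM values here are counts scaled to library size after TMM normalization, and gene differences are given as log2 fold changes of LN over LF with their standard error (SE). The deposited libraries carried colon markers but in very unequal proportions of tissue layers. EPCAM, the epithelial adhesion molecule, had 735, 729 and 1002 CPM in LN libraries 1, 2 and 3, against 334, 19.2 and 962 CPM in LF libraries 1, 2 and 3. MYH11, the smooth muscle myosin, had 17515, 11139 and 461 CPM in LN, against 23402, 26160 and 8083 CPM in LF. Library LF 2 therefore stood apart with very little epithelial RNA, as did HN 1 among the high-fibre libraries with 50.4 CPM of EPCAM, and LN 3 had the least smooth muscle RNA of the 6. The skeletal muscle gene ACTA1 was at 0 in LN 3 and reached 493 CPM in LF 2, and the ileal gene FABP6 stayed between 0.0681 and 10.1 CPM in the 6 libraries.

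Over the whole marker lists, 16 of 17 colon epithelium markers and 1 of 17 smooth muscle markers had a log2 fold change above 0. Summed epithelial markers covered 9979 to 14850.2 CPM in LN and 246 to 14227 CPM in LF. Summed smooth muscle markers covered 2044 to 77316 CPM in LN and 36452 to 141852 CPM in LF, so both sums overlapped between the groups while the lowest epithelial and highest muscle values were in LF. In bulk RNA, fewer cells of a type and less RNA per cell cannot be told apart. The main results are therefore given from the model of all 12 colon libraries, from a model that adds the mean log2 CPM of both marker lists as covariates, and from a model without LF 2 and HN 1, which was chosen after the marker levels were seen.

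**Figure D1:**
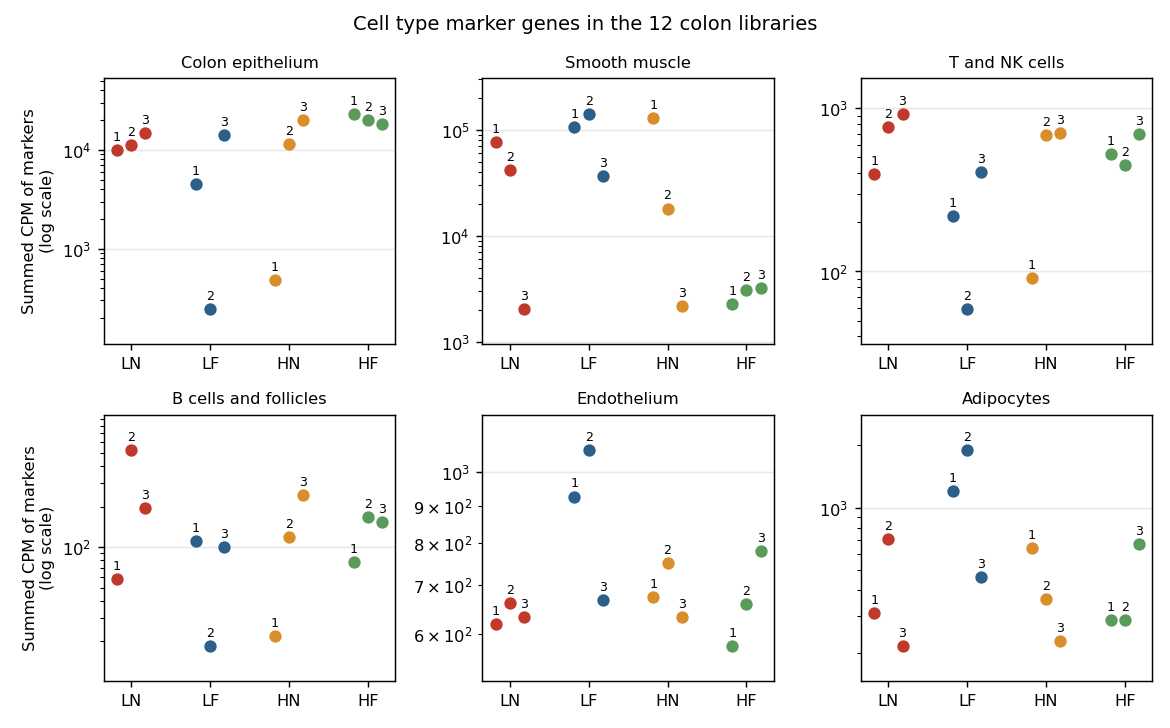
Summed CPM of 6 cell type marker lists on a log axis, for the LN, LF, HN and HF colon libraries; each point is a library and its digit the replicate. LF 2 and HN 1 hold the least epithelial marker RNA (246 and 479 CPM), T and NK cell markers run from 395 to 928 CPM in LN and from 58.9 to 410 CPM in LF, and adipocyte markers from 217 to 710 CPM in LN and from 464 to 1886 CPM in LF.

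The median log2 fold change of LN over LF was above 0 for T and NK cell markers (1.62), B cell markers (1.99), interferon-stimulated genes (0.92) and mitochondrially encoded genes (0.55). It was also above 0 for colon epithelium markers (0.85) and antigen presentation genes (0.97). It was below 0 for endothelial (-0.52), adipocyte (-1.62), smooth muscle (-1.32) and fibroblast (-0.68) markers and nuclear respiratory genes (-0.20). With the marker covariates the medians were 0.60 for T and NK cell markers, 1.03 for B cell markers and 0.47 for interferon-stimulated genes. They were -0.19 for endothelial and -0.70 for adipocyte markers in that model. No single gene passed the adjusted edgeR test in the 12 colon libraries. Among genes with a symbol and a mean log2 CPM above 0, LCORL, CD2AP and PPP1R9A had the smallest p upward, at 3.92, 4.3 and 2.72 times the LF mean, and ACKR3 had the smallest downward, at 0.422 times the LF mean.

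With all 12 colon libraries in the edgeR quasi-likelihood model, no gene of 15075 passed a Benjamini-Hochberg adjusted p of 0.05 between LN and LF (0% called), and the smallest adjusted p was 0.175. An unadjusted p under 0.05 was reached by 2010 genes (13.3%), 1066 higher (7.07%) and 944 lower (6.26%) with LN, where about 754 would be reached with no difference at all. The 3 LN values all lay above the 3 LF values for 1673 genes (11.1% of those tested) and all below for 1617 (10.7%). DESeq2 on the same genes called 653 (4.33%), of which 345 were higher (2.29%) and 308 lower (2.04%), and 1282 higher (8.5%) and 1564 lower (10.4%) genes had an unadjusted p under 0.05 in it. With the marker covariates edgeR called 1262 (8.37%), 966 higher (6.41%) and 296 lower (1.96%). Without LF 2 and HN 1 it called 282 (1.86%), 273 higher (1.8%) and 9 lower (0.0593%), and 1782 higher (11.7%) and 944 lower (6.22%) had an unadjusted p under 0.05. Of those 273 higher genes 237 were also among the 966, and all 9 lower genes were among the 296. LN and LF libraries correlated at 0.735 to 0.952 on the log2 CPM scale, against 0.913 to 0.963 within LN and 0.813 to 0.941 within LF. Leaving out LF 2 alone took the genes with an unadjusted p under 0.05 to 1124 higher and 540 lower with none called, and leaving out HN 1, which is in neither group, let 11 genes pass.

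The 10 genes with the smallest p among those higher with LN, under these limits, had no overlap between LN and LF libraries. LCORL (gene 100337668, Sscrofa11.1 chromosome 8, 12806878 to 12969370), a nuclear corepressor-like protein, had 51.2, 44.4 and 57.7 CPM in LN, against 10.5, 15.6 and 13.0 CPM in LF. CD2AP (gene 100154585, chromosome 7, 42218016 to 42332523), a scaffold between membrane proteins and actin, had 189, 112 and 148 CPM in LN, against 26.5, 43.9 and 33.96 CPM in LF. STK17B (gene 100153033, chromosome 15, 100029987 to 100066297), a kinase known in mouse to restrain T cell receptor signalling, had 137, 181 and 171 CPM in LN, against 18.6, 22.4 and 34.4 CPM in LF. In each of these 3 genes every LN library was more than double any LF library, and LF 2 was not the lowest LF value. The log2 fold changes were 1.97 ± 0.28 for LCORL, 2.11 ± 0.31 for CD2AP and 2.70 ± 0.44 for STK17B (± SE), with the same edgeR adjusted p of 0.175.

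Genes of the immune response were among the same 10. IFIH1 (chromosome 15, 68930998 to 68985145), the cytosolic sensor of long double-stranded RNA also called MDA5, had 15.1, 18.9 and 18.1 CPM in LN, against 5.33, 7.90 and 4.67 CPM in LF. IKZF2 (chromosome 15, 115512160 to 115677503), the transcription factor Helios of regulatory T cells, averaged 18.2 ± 5.53 CPM in LN and 3.19 ± 0.702 CPM in LF (SD, n = 3 each). TLR10 (chromosome 8, 30124895 to 30134854), a Toll-like receptor, averaged 7.63 ± 1.69 CPM in LN and 1.88 ± 0.323 CPM in LF. Their groups did not overlap, and their log2 fold changes were 1.54, 2.52 and 2.01.

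The other 4 act in signalling and lipid metabolism. PPP1R9A (chromosome 9, 74635285 to 74944050), the actin-binding protein neurabin 1, had 67.6, 65.6 and 68.2 CPM in LN, against 22.8, 28.1 and 23.2 CPM in LF. MAP2K6 (chromosome 12, 10891445 to 11018617), a kinase that activates p38, averaged 38.6 ± 10.5 CPM in LN and 12.1 ± 1.11 CPM in LF. UGCG (chromosome 1, 252651850 to 252690817), which makes glucosylceramide, averaged 89.0 ± 11 CPM in LN and 42.3 ± 5.64 CPM in LF. ANKRD44 (chromosome 15, 100868469 to 101211172), a subunit of protein phosphatase 6, averaged 85.5 ± 13.2 CPM in LN and 33.5 ± 9.09 CPM in LF. All 10 were called higher in the covariate model (edgeR adjusted p of 0.0110 to 0.0182), in the model without LF 2 and HN 1 (0.0283 to 0.0410) and by DESeq2.

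**Figure D2:**
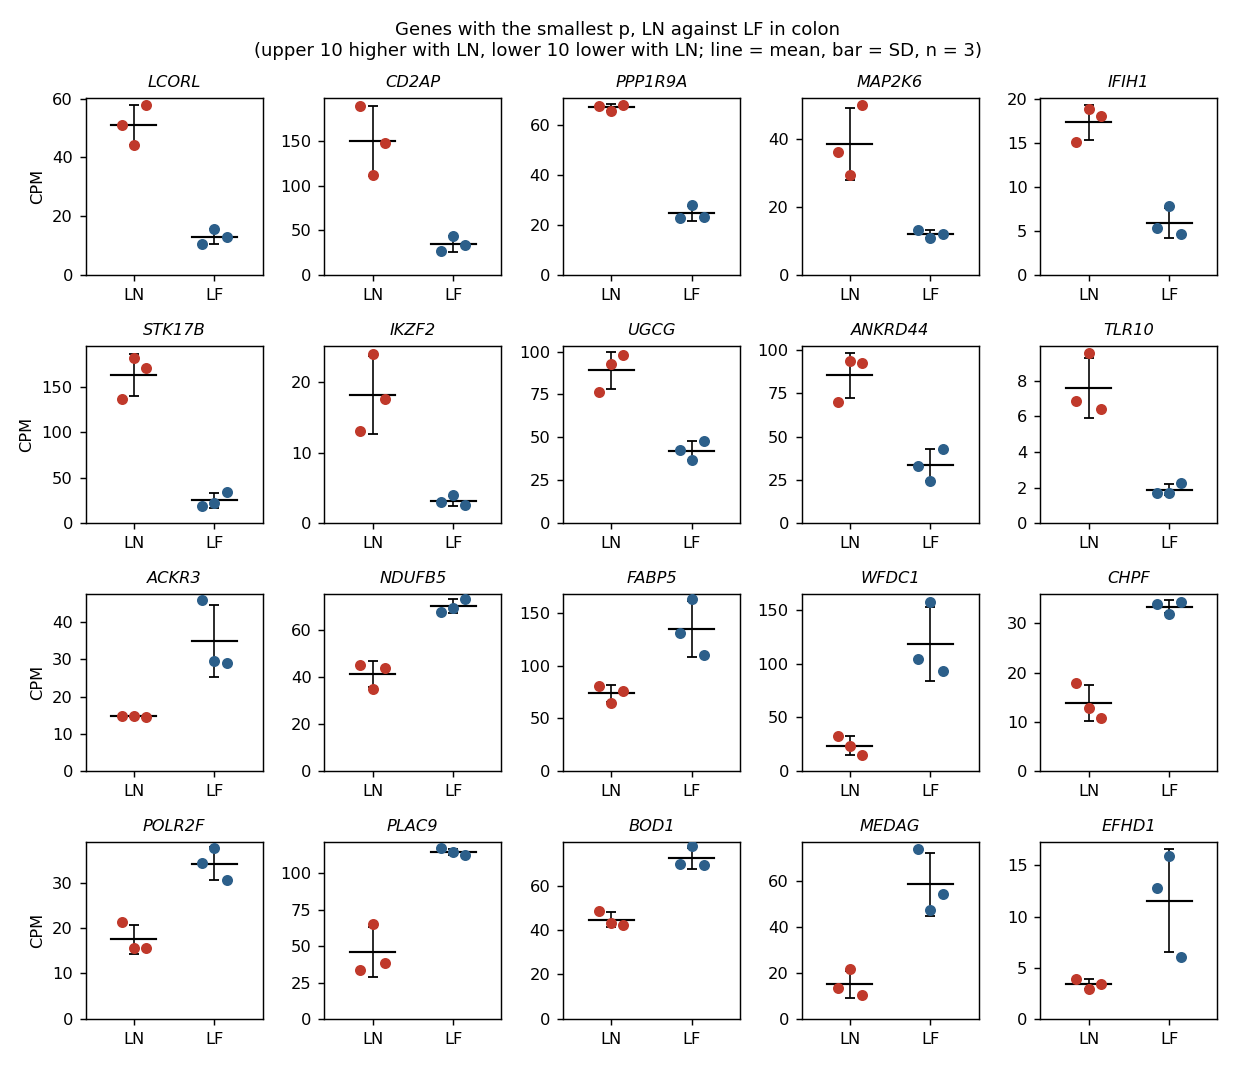
CPM of the 10 higher genes (upper 2 rows) and the 10 lower genes (lower 2 rows) with the smallest p in colon, LN beside LF; points are libraries, lines the mean and bars the SD (n = 3). No gene of the 20 has overlapping groups; PPP1R9A, for example, averages 67.1 ± 1.34 CPM in LN and 24.7 ± 2.97 CPM in LF.

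The 10 lower genes with the smallest p included stromal, lipid and mitochondrial genes. WFDC1 (gene 100514648, chromosome 6, 4333729 to 4365122), a secreted protease inhibitor-like protein of stroma, had 32.9, 23.2 and 15.0 CPM in LN, against 104, 158 and 93.2 CPM in LF. ACKR3 (gene 100515346, chromosome 15, 136370457 to 136382559), a scavenger receptor for the chemokine CXCL12, had 14.9, 14.8 and 14.5 CPM in LN, against 46.0, 29.6 and 28.9 CPM in LF. MEDAG (gene 100153765, chromosome 11, 7545400 to 7562741), a gene that promotes fat cell differentiation, had 13.3, 21.7 and 10.3 CPM in LN, against 73.9, 47.3 and 54.5 CPM in LF. Each LF value of these 3 genes was above every LN value, and in ACKR3 and MEDAG the highest LF library was LF 1, not LF 2. Their log2 fold changes were -2.32 ± 0.47, -1.24 ± 0.21 and -1.95 ± 0.41 (edgeR adjusted p of 0.175 to 0.179), and all 3 were called lower in the covariate model (adjusted p of 0.0110, 0.0110 and 0.0194) and without LF 2 and HN 1 (0.0322 for each).

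The remaining 7 passed in the covariate model and not without LF 2 and HN 1, where their adjusted p was 0.0530 to 0.0814. NDUFB5 (chromosome 13, 117656411 to 117671515), a subunit of respiratory complex I, had 45.1, 34.9 and 44.1 CPM in LN, against 67.9, 69.3 and 73.5 CPM in LF. CHPF (chromosome 15, 121547666 to 121553590), which extends chondroitin chains, had 17.8, 12.8 and 10.8 CPM in LN, against 33.96, 31.8 and 34.3 CPM in LF. FABP5, a fatty acid binding protein, averaged 73.7 ± 8.34 CPM in LN and 135 ± 26.6 CPM in LF. POLR2F, a subunit shared by the nuclear RNA polymerases, BOD1, which aids chromosome orientation at mitosis, EFHD1, a mitochondrial calcium-binding protein, and PLAC9 differed by -0.97, -0.70, -1.76 and -1.33 on the log2 scale. Without LF 2 and HN 1 the 9 genes called lower were WFDC1, MEDAG, ACKR3, AQP1, PROCR, GFPT2, ANK1 and 2 genes with a locus number, and PROCR and GFPT2 are described here after their values were seen. One of the genes with a locus number, LOC102161418, is annotated as interferon-induced transmembrane protein 1-like and averaged 9.26 ± 1.17 CPM in LN and 21.3 ± 3.63 CPM in LF, and it is not on the interferon list below. PROCR, the endothelial receptor of protein C, averaged 11.6 CPM in LN and 39.6 CPM in LF, and GFPT2, an enzyme of hexosamine synthesis, averaged 22.3 CPM in LN and 69.0 CPM in LF.

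Among genes with a mean count of at least 50 in the higher group and no overlap, the 5 largest folds upward were in CCL20, AQP8, FRMD1, MEP1B and NUGGC. CCL20 (chromosome 15, 129172743 to 129176069), the chemokine that draws CCR6-bearing lymphocytes to the epithelium, had 30.9, 8.27 and 10.8 CPM in LN, against 0.842, 0.273 and 0.805 CPM in LF. AQP8 (chromosome 3, 21493564 to 21503778), a water channel of colonocytes, had 169, 138 and 192 CPM in LN, against 13.9, 1.23 and 7.94 CPM in LF. MEP1B, the brush border protease meprin beta, had 17.9, 19.4 and 61.1 CPM in LN, against 3.31, 0.477 and 4.29 CPM in LF. LF 2 was the lowest library for all 3, and the other 2 LF libraries were also below every LN library. The log2 fold changes were 4.67 ± 1.501, 4.43 ± 1.35 and 3.59 ± 0.82, with edgeR adjusted p of 0.271, 0.265 and 0.198. FRMD1 and NUGGC, a GTPase of germinal centre B cells, followed at 3.89 and 3.43. Only MEP1B of these 5 passed in the covariate model of edgeR (adjusted p = 0.0267), and none passed without LF 2 and HN 1 (adjusted p of 0.0535 to 0.206). DESeq2 called all 5 (adjusted p of 0.000607 to 0.0230).

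The largest folds downward were in genes of muscle, fat and blood. MYH2, a fast skeletal myosin, had 0.860, 1.04 and 0.111 CPM in LN, against 7.46, 14.2 and 1.88 CPM in LF. LEP, the adipocyte hormone leptin, had 0.229, 0.490 and 0.999 CPM in LN, against 3.26, 7.70 and 1.29 CPM in LF. HBB, beta-globin of red cells, had 15.2, 13.7 and 11.3 CPM in LN, against 80.8, 33.8 and 180 CPM in LF. MYH2 and LEP were highest in LF 2, the library with the most muscle marker RNA, while HBB was highest in LF 3 and lowest of the LF libraries in LF 2. G0S2, an inhibitor of fat cell lipase, and SAMD4A, an RNA-binding translational repressor, differed by -2.90 and -2.74. HBB (adjusted p = 0.0314) and SAMD4A (0.0302) passed in the covariate model of edgeR and none of the 5 without LF 2 and HN 1 (0.0809 to 0.216). DESeq2 called G0S2, HBB, LEP and SAMD4A (adjusted p of 0.029 to 0.046) and not MYH2 (0.080).

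For the target pathway of NCG, 15 of 17 urea cycle and arginine synthesis genes in the file were tested, with 1 higher (ASS1) and 1 lower (OAT) below an unadjusted p of 0.05, beside the 7.07% and 6.26% over all genes, and a median log2 fold change of -0.07. CPS1 (chromosome 15, 113210038 to 113339086) had 0.115, 0.613 and 0 CPM in LN, against 0.281, 0.409 and 0.429 CPM in LF, near the value that a count of 0 allows. OTC had 0, 2 and 0 counts in LN and 0, 0 and 1 counts in LF and was not tested, so both enzymes of citrulline synthesis were at or near the floor in the 6 LN and LF libraries. Among the other colon libraries, HN 1 had 5.28 CPM of CPS1 and 6.89 CPM of OTC, and HF 2 had 3.30 CPM of CPS1. NAGS, which makes N-acetylglutamate, had 5.39, 6.19 and 6.33 CPM in LN, against 2.41, 0.409 and 7.46 CPM in LF. Its groups overlapped (edgeR adjusted p = 0.669). ASS1 (gene 414411, chromosome 1, 270531434 to 270586364) had 327, 78.7 and 178 CPM in LN, against 44.9, 32.4 and 45.9 CPM in LF. Every LN value of ASS1 was above every LF value, but the LN libraries spread more than 4-fold. The log2 fold change of 2.24 ± 0.70 had an edgeR adjusted p of 0.265, 0.131 with the covariates and 0.227 without LF 2 and HN 1. DESeq2 gave ASS1 an adjusted p of 0.0402. OAT, which joins ornithine and proline metabolism, averaged 106 ± 19.3 CPM in LN and 152 ± 17.8 CPM in LF without overlap (log2 fold change -0.52). PYCR1, of proline synthesis, averaged 17.6 CPM in LN and 28.6 CPM in LF.

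Downstream of arginine, the 2 named nitric oxide synthases lay in opposite directions. NOS2 (gene 396859, chromosome 12, 44174944 to 44219875), the inducible enzyme, had 55.7, 22.0 and 32.4 CPM in LN, against 5.39, 1.64 and 3.22 CPM in LF. NOS3 (gene 397557, chromosome 18, 6209218 to 6228912), the endothelial enzyme, had 6.08, 8.09 and 5.44 CPM in LN, against 15.6, 17.0 and 11.4 CPM in LF. Neither gene overlapped between groups, with log2 fold changes of 3.42 ± 0.93 (edgeR adjusted p = 0.240) and -1.16 ± 0.27 (0.202). NOS3 passed in the covariate model (0.0443) and NOS2 did not (0.0877). Without LF 2 and HN 1 neither passed (0.0716 for NOS3 and 0.137 for NOS2). DESeq2 called both (adjusted p of 0.00143 for NOS3 and 0.00654 for NOS2). Of 24 genes of arginine uptake, nitric oxide and polyamines, NOS2 and SAT1 were higher and NOS3 lower below an unadjusted p of 0.05. These 2 and 1 stand beside 7.07% and 6.26% of all genes, and the list median was -0.14. SAT1, which acetylates polyamines, was present at 375 ± 115 CPM in LN and 194 ± 80.3 CPM in LF. ARG2, the mitochondrial arginase, averaged 20.9 ± 5.18 CPM in LN and 15.2 ± 7.596 CPM in LF with overlapping groups.

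In the PI3K-Akt pathway, which carries insulin and growth factor signals, 4 of 39 genes were higher and 4 lower below an unadjusted p of 0.05, close to the 7.07% and 6.26% over all genes, with a median log2 fold change of -0.07. With the covariates 6 were called higher and none lower, beside 6.41% and 1.96% of all genes, with a median of 0.17. AKT1, its central kinase, had 158, 146 and 158 CPM in LN, against 179, 183 and 185 CPM in LF, which did not overlap (log2 fold change -0.25 ± 0.17, edgeR adjusted p = 0.511). PIK3CA (chromosome 13, 117193935 to 117282151), a catalytic subunit of PI3K, had 42.5, 32.6 and 27.4 CPM in LN, against 17.2, 68.6 and 10.3 CPM in LF. LF 2 was above and LF 1 and LF 3 were below each LN value of PIK3CA, and its log2 fold change was 0.09 ± 0.74 in the 12 libraries (adjusted p = 0.956). In the covariate model PIK3CA passed (adjusted p = 0.00999) and without LF 2 and HN 1 it did not (0.123). RPS6KB1, the S6 kinase of the mTOR pathway, had 63.3, 61.5 and 63.2 CPM in LN, against 29.9, 53.9 and 31.2 CPM in LF. MDM2, the ligase of p53, averaged 75.8 ± 4.86 CPM in LN and 53.3 ± 1.81 CPM in LF. CCND1, cyclin D1, averaged 50.2 ± 14.8 CPM in LN and 96.1 ± 21.9 CPM in LF, and RHEB, the activator of mTOR, 73.3 ± 22.5 CPM in LN and 145 ± 56.3 CPM in LF.

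Growth factors and receptors counted 2 of 36 higher and 3 lower below an unadjusted p of 0.05. These counts are near the 7.07% and 6.26% over all genes, and the list median was -0.14. IGF1 (chromosome 5, 81762027 to 81909253), insulin-like growth factor 1, had 52.1, 36.4 and 37.4 CPM in LN, against 8.14, 30.1 and 10.8 CPM in LF. Its groups did not overlap (log2 fold change 1.36 ± 0.44), and it passed with the covariates (edgeR adjusted p = 0.0399) and without LF 2 and HN 1 (0.0322), but not in the 12 libraries (0.271). IGF2, the fetal growth factor of the same family, averaged 68.3 ± 12.5 CPM in LN and 116 ± 42.9 CPM in LF, while its clearance receptor IGF2R averaged 84.3 ± 21.3 CPM in LN and 55.7 ± 16.9 CPM in LF. PDGFRA, the receptor that marks mesenchymal cells, averaged 209 ± 18.03 CPM in LN and 301 ± 25.4 CPM in LF without overlap.

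Of the interferon-stimulated genes, 11 of 31 had an unadjusted p under 0.05 upward and none downward, 29 of 31 were above 0, and the median log2 fold change was 0.92, beside 7.07%, 6.26%, 7534 of 15075 and -0.00 over all genes tested. In 10 of the 31 the LN values all exceeded the LF values, a pattern found in 11.1% of all genes. Their summed level ran from 1412 to 2833 CPM in LN and from 719 to 1421 CPM in LF, with LN 1 just below LF 3. EIF2AK2, the double-stranded RNA kinase PKR, had 78.5, 67.6 and 94.3 CPM in LN, against 30.4, 54.2 and 34.9 CPM in LF. GBP2, an interferon-induced GTPase, had 56.6, 93.8 and 142 CPM in LN, against 32.0, 13.9 and 41.1 CPM in LF. HERC6, which attaches ISG15 in mouse, averaged 104 ± 45.5 CPM in LN and 48.3 ± 9.41 CPM in LF. Each LN library was above each LF library for these 3 genes, and LN 3 was the highest. IFIH1 and EIF2AK2 passed in both further edgeR models (EIF2AK2 adjusted p = 0.0118 and 0.0381), GBP2 with the covariates only (0.0423). Over the list 5 members were called higher with the covariates, beside 6.41% of all genes, and 2 without LF 2 and HN 1, beside 1.8%, with medians of 0.47 and 0.78.

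Genes by which the epithelium defends itself counted 3 of 29 higher and 1 lower below an unadjusted p of 0.05. Over all genes the shares were 7.07% and 6.26%, and the list median was 0.72, or 0.10 with the covariates. DUOX2, the hydrogen peroxide-producing oxidase of the gut surface, had 318, 105 and 295 CPM in LN, against 50.3, 25.0 and 62.8 CPM in LF. Its groups did not overlap, with a log2 fold change of 2.38 ± 0.83 (edgeR adjusted p = 0.292). CHI3L1, a chitinase-like protein, averaged 12.1 ± 7.30 CPM in LN and 4.04 ± 2.23 CPM in LF, and LCN2, the iron-chelating protein lipocalin 2, averaged 3.71 ± 1.53 CPM in LN and 9.12 ± 4.64 CPM in LF.

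Markers of lymphocytes were higher on average with LN. All 19 tested T and NK cell markers had a log2 fold change above 0 with a median of 1.62. Of these 19, 4 had an unadjusted p under 0.05, beside 7.07% of all genes upward. KLRK1, the receptor NKG2D, had 17.5, 17.2 and 14.5 CPM in LN, against 5.72, 1.77 and 5.42 CPM in LF. GZMA, granzyme A of cytotoxic cells, had 69.4, 56.8 and 67.1 CPM in LN, against 12.6, 0.613 and 28.4 CPM in LF. CD247, the zeta chain of the T cell receptor, had 42.4, 76.4 and 107 CPM in LN, against 30.03, 19.1 and 32.6 CPM in LF. LF 2 was the lowest of the 6 libraries in all 3, and LF 1 and LF 3 were also below each LN library. GZMA passed with the covariates (edgeR adjusted p = 0.0236) and had 0.0524 without LF 2 and HN 1. The summed T and NK cell markers of LF 3, 410 CPM, overlapped those of LN 1, 395 CPM, and the list's median was 0.60 with the covariates and 1.23 without LF 2 and HN 1.

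The 15 tested B cell and follicle markers were likewise all above 0, with a median of 1.99. An unadjusted p under 0.05 was reached by 2 of them, beside 7.07% of all genes upward. LN 2 carried most of the difference. CD22, a B cell receptor for sialic acid, had 11.4, 49.6 and 19.9 CPM in LN, against 8.98, 3.48 and 7.83 CPM in LF. Summed over the list, LN 2 had 525 CPM, LN 3 had 197 CPM and LN 1 had 58.3 CPM, so that LN 1 was below LF 1 (111 CPM) and LF 3 (100.2 CPM). Antigen presentation genes were above 0 in 27 of 27 tested entries with a median of 0.97. An unadjusted p under 0.05 was reached by 1 of the 27, beside 7.07% of all genes upward. It was CIITA, the regulator of class II genes, at 48.1 ± 24 CPM in LN and 16.8 ± 6.88 CPM in LF. With the covariates the median of the antigen presentation list was -0.06, and without LF 2 and HN 1 it was 0.63. Among myeloid markers, FLT3 of dendritic cells averaged 11.4 ± 4.68 CPM in LN and 3.29 ± 1.35 CPM in LF, whereas CD163 of tissue macrophages averaged 49.95 ± 11.6 CPM in LN and 94.2 ± 24.6 CPM in LF, both without overlap. 

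**Figure D3:**
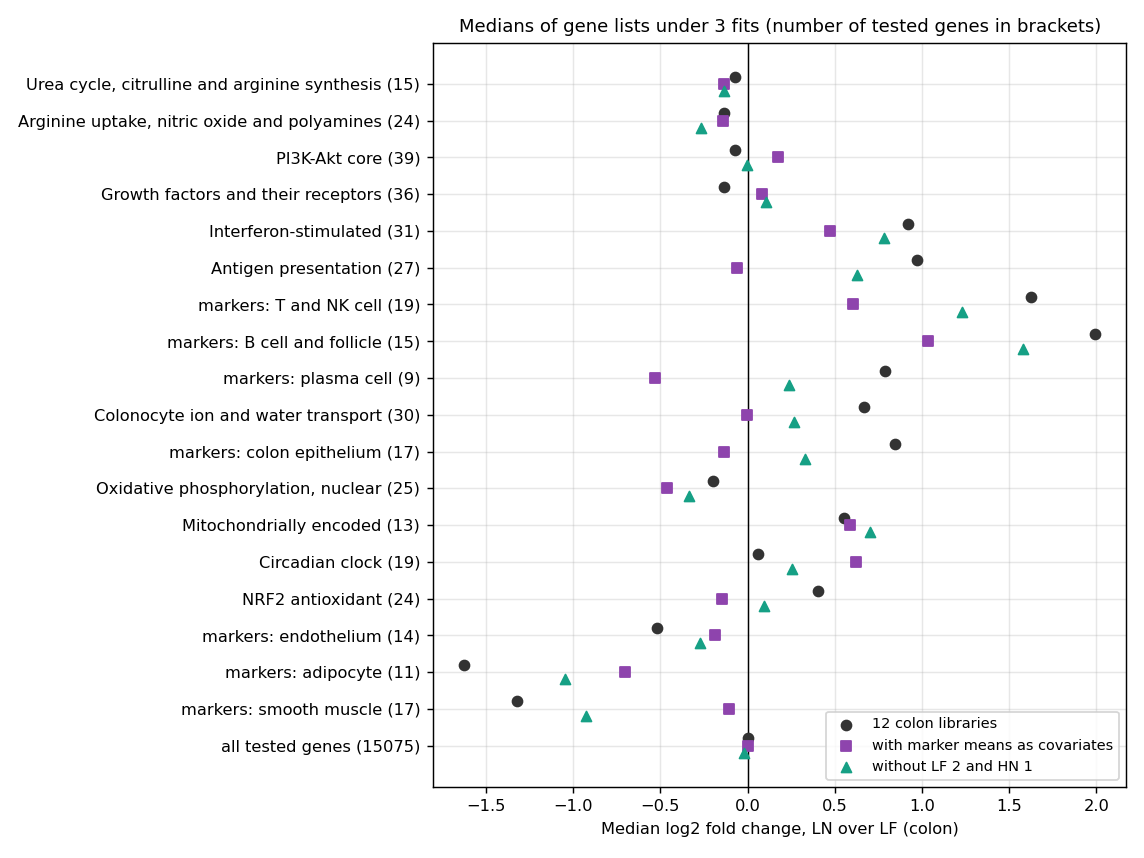
Median log2 fold change of LN over LF for 18 gene lists and all tested genes, from the 12 colon libraries (circles), the model with marker means as covariates (squares) and the model without LF 2 and HN 1 (triangles). T and NK cell, B cell and interferon-stimulated genes stay above 0 in all 3 (0.60 to 1.99 for the 2 lymphocyte lists and 0.47 to 0.92 for interferon), while antigen presentation and plasma cell markers are below 0 with the covariates. The epithelial and smooth muscle lists are themselves covariates in that model, which holds their medians near 0.

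Of 30 tested genes of ion and water transport in colonocytes, 24 were above 0 with a median of 0.67, or -0.00 with the covariates. At an unadjusted p under 0.05, 2 were higher and 1 lower, beside 7.07% and 6.26% of all genes. NR3C2, the mineralocorticoid receptor that governs sodium uptake, had 71.2, 84.8 and 80.1 CPM in LN, against 39.4, 24.3 and 68.6 CPM in LF. SLC4A4, a sodium bicarbonate cotransporter, averaged 344 ± 82.6 CPM in LN and 119 ± 102 CPM in LF, and CLCA4, a protein of the mature epithelium, 857 ± 228 CPM in LN and 172 ± 143 CPM in LF. LN values exceeded LF values in all 3 genes. AQP1 (gene 407773, chromosome 18, 42063482 to 42076741), the water channel of vessels and red cells, had 76.4, 97.2 and 72.0 CPM in LN, against 191, 244 and 200 CPM in LF. AQP1 thus ran opposite to AQP8, with a log2 fold change of -1.37 ± 0.34, and was called lower with the covariates (edgeR adjusted p = 0.0297) and without LF 2 and HN 1 (0.0322). Of 15 genes of short-chain fatty acid use 1 had an unadjusted p under 0.05, beside 7.07% of all genes upward. It was SLC16A4, of the monocarboxylate transporter family, at 2.53 ± 0.0686 CPM in LN and 0.808 ± 0.318 CPM in LF. Of 20 crypt stem cell and Wnt target genes 12 were above 0 and 8 below, with a median of 0.18. With the covariates that median was -0.29, and 1 was called lower, beside 1.96% of all genes. Only LGR5, the receptor that marks crypt stem cells, had an unadjusted p under 0.05, beside 7.07% of all genes upward. LGR5 averaged 5.77 ± 0.768 CPM in LN and 2.42 ± 0.853 CPM in LF, and did not pass with the covariates (edgeR adjusted p = 0.325). TOP2A, a topoisomerase of dividing cells, averaged 66.0 ± 8.36 CPM in LN and 17.9 ± 14.7 CPM in LF. TOP2A passed with the covariates (0.0124), whereas the 30 cell cycle genes had a median of 0.31 in the 12 libraries and -0.52 with the covariates.

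Among 25 nuclear genes of oxidative phosphorylation 24 were below 0. At an unadjusted p under 0.05, 7 were lower and none higher, beside 6.26% and 7.07% of all genes. In 9 of the 25 all LN values lay below all LF values, a pattern of 10.7% of all genes. NDUFA6, NDUFA8 and NDUFA4, a complex I subunit pair and a complex IV subunit, averaged 26 ± 3.40, 43.3 ± 9.74 and 63.0 ± 27.6 CPM in LN, against 39.5 ± 2.33, 69.4 ± 5.04 and 165 ± 57.7 CPM in LF. The median of the nuclear list was -0.20, and it was -0.46 with the covariates and -0.33 without LF 2 and HN 1. Its summed level overlapped between the groups, at 3731 to 4440.0 CPM in LN and 3972 to 5972 CPM in LF. Of the 13 mitochondrially encoded genes 11 were above 0, and the median was 0.55. At an unadjusted p under 0.05, 5 were higher and none lower, beside 7.07% and 6.26% of all genes. ND4, a complex I subunit of the mitochondrial genome, had 2051, 2082 and 2254 CPM in LN, against 1060, 1635 and 1066 CPM in LF. ND3 had 523, 540 and 552 CPM in LN, against 296, 364 and 340 CPM in LF. The groups did not overlap in either gene. ND4L and ATP8, subunits of complex I and ATP synthase, averaged 151 ± 25.6 and 7.66 ± 1.86 CPM in LN, against 97.7 ± 14.5 and 3.94 ± 1.55 CPM in LF. No member of either list passed the adjusted test in the 12 libraries, and the lists were not tested against each other. The mitochondrial genes together took 6.96% to 8.55% of the counts in LN and 5.16% to 7.26% in LF.

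Several redox and xenobiotic sensors had no overlap between LN and LF. NFE2L2 (gene 100516343, chromosome 15, 82967485 to 83146185), the transcription factor NRF2, had 176, 156 and 194 CPM in LN, against 70.2, 114 and 86.0 CPM in LF. GCLM, a subunit of the enzyme that limits glutathione synthesis, had 102, 57.3 and 82.7 CPM in LN, against 24.3, 30.9 and 43.5 CPM in LF. HMOX1, heme oxygenase 1, averaged 31.3 ± 6.71 CPM in LN and 11.6 ± 4.24 CPM in LF. These were the 3 of 24 NRF2 list members with an unadjusted p under 0.05 upward, and none was downward. Over all genes the shares were 7.07% and 6.26%, and the list median was 0.40, or -0.14 with the covariates. AHR (gene 396654, chromosome 9, 86511866 to 86555950), the aryl hydrocarbon receptor of barrier tissues, had 65.0, 67.7 and 65.8 CPM in LN, against 23.6, 32.7 and 35.1 CPM in LF. Its target TIPARP averaged 105 ± 17.7 CPM in LN and 45.0 ± 16.8 CPM in LF. NFE2L2 passed with the covariates (edgeR adjusted p = 0.0218) and without LF 2 and HN 1 (0.0375). GCLM (0.0459) and AHR (0.0324) passed with the covariates and had 0.0812 and 0.0627 without these libraries.

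Of 19 clock genes, which cycle over the day, 3 were higher and 4 lower below an unadjusted p of 0.05, with a median of 0.06. Over all genes these shares were 7.07% and 6.26%. With the covariates 7 were called higher and 1 lower, beside 6.41% and 1.96% of all genes, with a median of 0.62. Without LF 2 and HN 1 none was called in either direction, with a median of 0.26. NR1D1, the repressor REV-ERB alpha, had 52.8, 37.9 and 20.4 CPM in LN, against 19.8, 16.8 and 10.8 CPM in LF. DBP, an output factor of the clock, had 50.2, 25.4 and 14.4 CPM in LN, against 11.9, 10.1 and 5.42 CPM in LF. Neither gene overlapped between the groups, and the hour of sampling is not given in the sources used here. In colon HN against HF, where HN 1 is the library low in epithelial markers, 11 of the 19 clock genes were higher at an unadjusted p under 0.05, beside 10.7% of all genes. ARNTL, the activator BMAL1 that REV-ERB alpha represses, had 14.0, 15.4 and 13.4 CPM in LN, against 18.5, 31.8 and 22.3 CPM in LF. NFIL3, also repressed by REV-ERB alpha, averaged 10.8 ± 2.19 CPM in LN and 20.2 ± 3.85 CPM in LF. PER1, a clock and glucocorticoid-responsive gene, averaged 49.6 ± 6.17 CPM in LN and 90.0 ± 15.6 CPM in LF, and the glucocorticoid-induced TSC22D3 70.3 ± 18.4 CPM in LN and 110 ± 12.7 CPM in LF. NR1D1 (0.0178), DBP (0.0178) and NFIL3 (0.0411) passed in the covariate model of edgeR and none of the 3 without LF 2 and HN 1 (0.136 to 0.236).

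Of 14 endothelial markers 13 were below 0. At an unadjusted p under 0.05, 5 were lower and none higher, beside 6.26% and 7.07% of all genes. PECAM1, the adhesion molecule CD31, had 158, 178 and 148 CPM in LN, against 293, 308 and 209 CPM in LF. ESAM, another endothelial adhesion molecule, had 12.8, 12.6 and 13.1 CPM in LN, against 24.9, 28.5 and 19.7 CPM in LF. The summed endothelial markers were 620 to 663 CPM in LN and 669 to 1071 CPM in LF, which did not overlap. ESAM passed with the covariates (edgeR adjusted p = 0.0440) and the median of the list was then -0.19, against -0.52 in the 12 libraries. Of 11 adipocyte markers 10 were below 0, with a median of -1.62. Downward, 5 had an unadjusted p under 0.05, beside 6.26% of all genes. The summed adipocyte markers overlapped between LN and LF, and no marker of either list passed the adjusted test in the 12 libraries. FABP4, the fatty acid binding protein of fat cells, had 25.7, 114 and 29.6 CPM in LN, against 234, 428 and 53.8 CPM in LF, so LN 2 was above LF 3. Within smooth muscle, ACTA2 averaged 316 ± 56.6 CPM in LN and 822 ± 450 CPM in LF, and HHIP, a hedgehog-binding protein on the same list, ran the other way at 49.1 ± 18.3 CPM in LN and 10.1 ± 5.46 CPM in LF.

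The high-fibre pair offers the same addition of NCG without shared libraries. No gene passed between HN and HF (0% called), where 1618 genes were higher (10.7%) and 297 lower (1.97%) below an unadjusted p of 0.05, and HN 1 is the library low in epithelium there. The difference between the 2 NCG effects, LN over LF minus HN over HF, passed for no gene (0% called; smallest edgeR adjusted p 0.327), with 2264 genes (15%) at an unadjusted p under 0.05, 578 of them above 0 (3.83%) and 1686 below (11.2%). Among genes with a symbol and a mean log2 CPM above 0, the 5 with the smallest p in this contrast were UGCG, CD2AP, TRANK1, WFDC1 and MAF. CD2AP, with the LN and LF values given above, had 58.7, 120 and 83.2 CPM in HN, against 81.8, 86.7 and 104 CPM in HF, and UGCG had 52.6, 70.7 and 63.0 CPM in HN, against 80.3, 81.2 and 67.6 CPM in HF. In both genes HN and HF overlapped, while LN and LF did not. TRANK1 had 66.3, 90.5 and 96.0 CPM in LN, against 39.7, 26.5 and 29.5 CPM in LF, and 42.8, 74.6 and 60.1 CPM in HN, against 89.8, 89.1 and 64.8 CPM in HF. MAF, a transcription factor of T cells and macrophages, averaged 17.0 ± 3.75 CPM in LN and 10.9 ± 0.725 CPM in LF. The differences between the effects were 2.17 ± 0.42 for CD2AP, 1.37 ± 0.25 for UGCG, 1.86 ± 0.37 for TRANK1, 1.40 ± 0.32 for MAF and -2.94 ± 0.65 for WFDC1, each with an edgeR adjusted p of 0.327. Tissue layers also differed between the pairs: summed smooth muscle markers were 2274 to 3204 CPM in HF and 2180 to 128135 CPM in HN. In LF they were 36452 to 141852 CPM. Of 17 smooth muscle markers 15 had an unadjusted p under 0.05 in this contrast, beside 15% of all genes. The part of tissue layers in these differences was not tested.

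Several genes that stood out on low fibre had the opposite sign on high fibre. AQP8 had 2.54, 65.0 and 135 CPM in HN, against 528, 47.1 and 205 CPM in HF, so the LN level of 166 ± 27.3 CPM was within the HF range and LF, at 7.70 ± 6.35 CPM, was the low group. ASS1 had 31.1, 24.1 and 93.8 CPM in HN, against 58.0, 45.1 and 169 CPM in HF, and CCL20 had 0.602, 2.81 and 12.5 CPM in HN, against 1.17, 4.003 and 47.7 CPM in HF. The differences between the NCG effects, 6.38 ± 1.79 for AQP8, 3.11 ± 0.97 for ASS1 and 6.40 ± 1.97 for CCL20, did not pass (edgeR adjusted p of 0.327). Between HN and HF, interferon-stimulated genes had a median of -0.30 and T and NK cell markers a median of -0.12. Of the 31 interferon-stimulated genes, 1 was higher there at an unadjusted p under 0.05 and none lower. Over all genes these shares were 10.7% and 1.97%.

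The ileum pair, LN against LF without shared libraries, had many called genes: 597 of 15675 (3.81%) passed in the 24-library edgeR model, 533 higher (3.4%) and 64 lower (0.408%). Of those called higher, 525 were tested in colon, and 493 of them (93.9%) were above 0 there, against 50% of all genes, with a median of 0.63. Of these 525, 183 (34.9%) had an unadjusted p under 0.05 upward in colon, against 7.07% of all genes. Of the 64 called lower in ileum, 7 (10.9%) were above 0 in colon, against 50% of all genes. Downward, 19 (29.7%) had an unadjusted p under 0.05 in colon, against 6.26% of all genes. The difference of the effects, colon minus ileum, passed for no gene (0% called; smallest adjusted p 0.467), with 1254 genes (8%) at an unadjusted p under 0.05, 501 above 0 (3.2%) and 753 below (4.8%).

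For 24 genes that were named as higher with NCG in ileum from these data, 22 were above 0 in colon, beside 50% of all genes. Their median was 0.70 in colon, against 2.15 in ileum. At an unadjusted p under 0.05, 8 were higher in colon, beside 7.07% of all genes. Their choice by the ileum values favours a larger value in ileum, so the 2 medians are a description only. PGAP1 (gene 100620753, chromosome 15, 100733552 to 100820603), which remodels the anchors of membrane proteins, had 82.1, 78.5 and 90.2 CPM in colon LN, against 18.9, 35.4 and 26.1 CPM in colon LF. ITGB8 (chromosome 9, 89342245 to 89450701), an integrin that activates TGF-beta, had 47.4, 58.7 and 70.3 CPM in colon LN, against 7.63, 19.1 and 8.798 CPM in colon LF. PPIP5K2, an inositol pyrophosphate kinase, had 46.3, 35.3 and 43.8 CPM in colon LN, against 8.42, 23.2 and 10.4 CPM in colon LF. LF 2 was the highest LF library for all 3, so the difference was larger over LF 1 and LF 3. The colon and ileum log2 fold changes were 1.64 and 2.63 for PGAP1, 2.31 and 3.13 for ITGB8, 1.58 and 2.67 for PPIP5K2, and 1.54 and 2.88 for IFIH1. N4BP2, a nuclease-domain protein, averaged 27.6 ± 3.28 CPM in colon LN and 10.9 ± 8.30 CPM in colon LF. In the covariate model 21 of the 24 were called higher in colon, beside 6.41% of all genes, and without LF 2 and HN 1 13 were, beside 1.8%, with medians of 1.70 and 1.59.

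**Figure D4:**
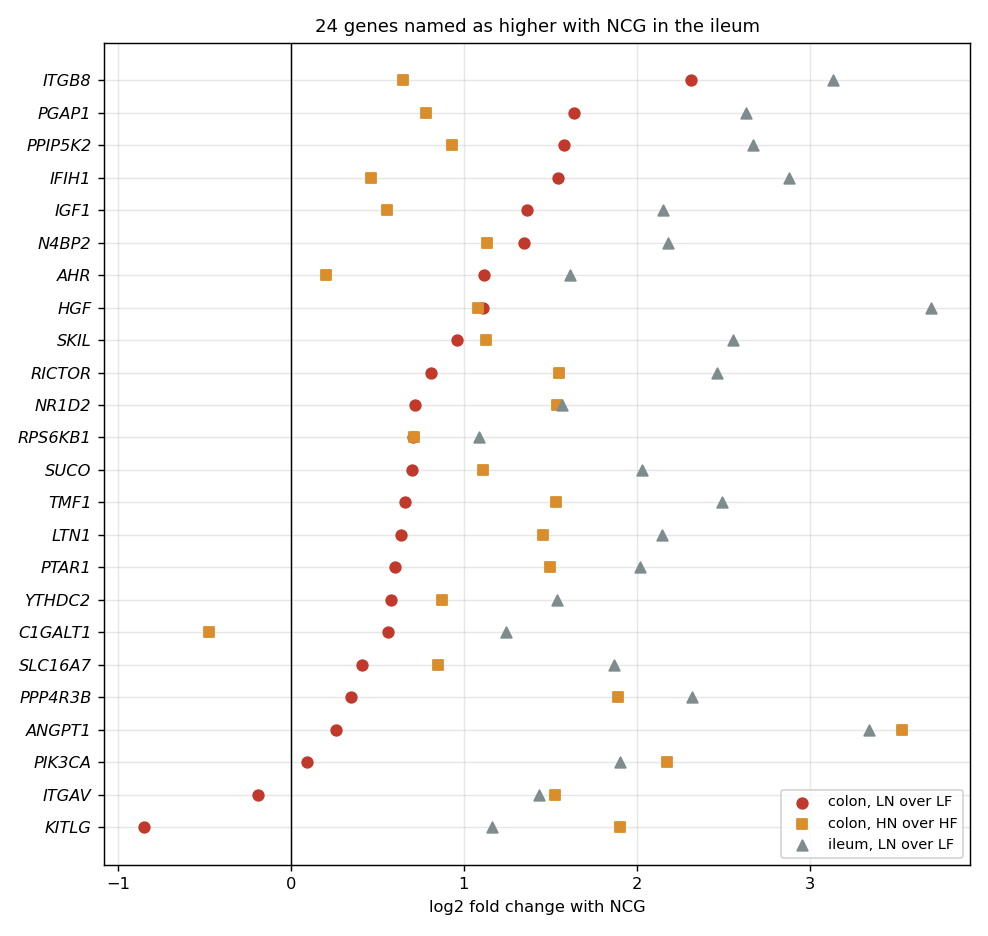
log2 fold change with NCG of 24 genes named as higher with NCG in ileum, in colon on low fibre (LN over LF), in colon on high fibre (HN over HF) and in ileum on low fibre. Colon LN over LF values run from -0.85 (KITLG) to 2.31 (ITGB8), and the ileum values, by which the genes were chosen, lie above the colon value of the same gene.

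Under the same limits, the 5 genes with the smallest p for the difference between colon and ileum were LPGAT1, CDO1, PC, ADIPOR2 and TYW1. LPGAT1, a phospholipid acyltransferase, had 119, 116 and 121 CPM in colon LN, against 105, 136 and 124 CPM in colon LF, a log2 fold change of -0.04 in the 24-library model, whereas it was called higher in ileum (1.17; edgeR adjusted p = 0.00174). CDO1, which oxidizes cysteine, had 2.29, 2.63 and 1.998 CPM in colon LN, against 9.77, 13.7 and 8.05 CPM in colon LF, and its log2 fold change was -2.19 in colon and 4.08 in ileum. PC, pyruvate carboxylase, had -1.35 in colon and 2.99 in ileum, ADIPOR2, an adiponectin receptor, -0.92 and 0.95, and TYW1, an enzyme of tRNA modification, -0.39 and 1.67. None of these 5 differences between tissues passed (edgeR adjusted p of 0.467 to 0.602). Adipocyte markers had a median of -1.62 in colon and 3.38 in ileum, where 5 of 11 were called higher, beside 3.4% of all genes. The part of fat tissue in these genes was not tested.

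The differences also varied with gene length. In 10 classes of the tested genes by deposited length, the median log2 fold change was -0.17 in the shortest (median 987 bases) and 0.15 in the longest (median 11879 bases). Genes with an unadjusted p under 0.05 had a median length of 5377 bases when higher and 2542 bases when lower, against 3731 bases for all tested genes. In the covariate model the 966 genes called higher had a median length of 6980 bases, and the 296 called lower 1983 bases. From shortest to longest the medians ran -0.26 to 0.22 in ileum LN over LF and -0.24 to 0.46 in colon HN over HF. In colon LN over LF they ran -0.26 to 0.29 without LF 2 and -0.32 to 0.41 with the marker covariates. The nuclear oxidative phosphorylation list had a median length of 880 bases and the genes named from ileum 7403 bases, and these lists had medians of -0.20 and 0.70. The mitochondrially encoded genes, with a median of 784 bases, had a median of 0.55. The part of length in the differences was not tested.

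**Figure D5:**
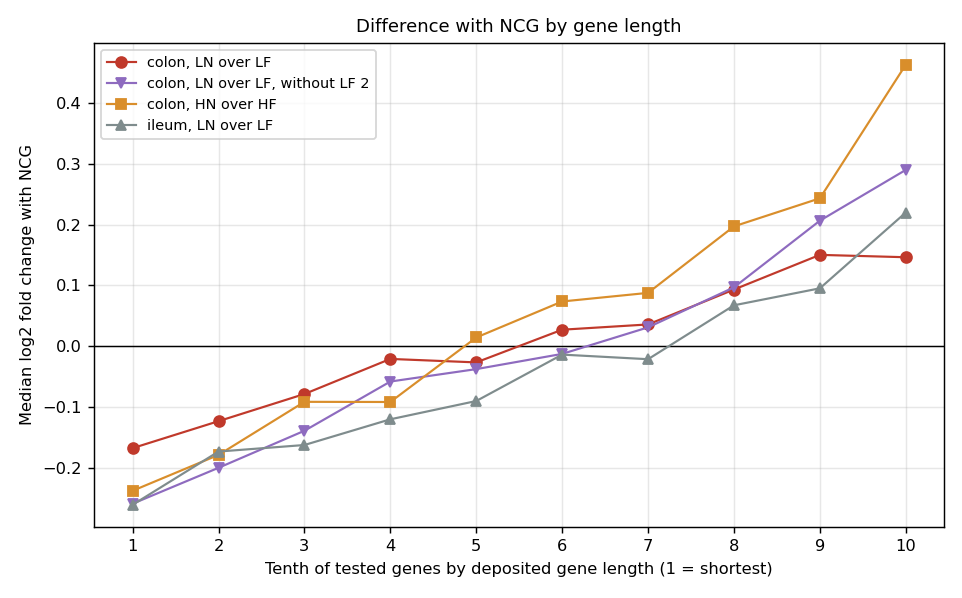
Median log2 fold change with NCG in length classes of equal size of the tested genes, for colon LN over LF, the same without LF 2, colon HN over HF and ileum LN over LF. The lines lie below 0 for the shortest class (-0.17, -0.26, -0.24 and -0.26) and above 0 for the longest (0.15, 0.29, 0.46 and 0.22).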

How the data were processed

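RNA sequencing read counts per gene were used as deposited; per the submitters' processing notes fastp 0.22.0, HISAT2 2.1.0 and HTSeq 0.9.1 were run on build Sscrofa11.1, with settings and strand mode not given in the sources used here. The deposited FPKM values, which the authors made by scaling the counts, follow from these to a relative difference of at most 2.10e-07 and did not enter any test. Gene length as deposited, another unit, is in bases per the file headers. Symbols turned into dates (25) were restored from RefSeq by gene ID. The counts entered edgeR 4.0.16 (R 4.3.3): filterByExpr, TMM, a quasi-likelihood F-test and Benjamini-Hochberg adjustment at 0.05 over 15075 genes, in a model of 4 diet means over 12 colon libraries, or of 8 group means over 24 libraries and 15675 genes for colon against ileum. Alternatives were RLE scaling, no filter, DESeq2 1.42.0, limma 3.58.1 voom, a replicate block, 6 libraries, marker covariates and single libraries left out. Scripts were tested on simulated data. Genes were named by rule: the 10 smallest p each way at a mean log2 CPM above 0, 7 fixed genes, up to 4 smallest p per list, 5 per interaction and 5 largest folds each way without overlap at 50 counts or more. Members, lists and rule were chosen with earlier results of these data known.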

Additional observations from a re-analysis of the deposited data

How the results depend on the processing

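Between LN and LF in colon the count of genes called was 0 in the 12-library model and 0 with RLE size factors, without the count filter, with limma voom and with only the 6 LN and LF libraries. It was 653 with DESeq2, 1262 with the marker covariates, 282 without LF 2 and HN 1, and 0 to 11 over the models without a single library, 11 being without HN 1. Genes at an unadjusted p under 0.05 then ranged from 996 (without LN 3) to 3105 (without HN 1). For low minus high fibre and for colon minus ileum, RLE, no filter and each model without a single library gave 0, and DESeq2 gave 67 and 32. Without LF 2 and HN 1 the counts were 0 and 1. Covariates and voom were not run for these contrasts. The median of all tested genes was -0.00 with TMM and -0.04 with RLE. Same-numbered LN and LF libraries deviated together at -0.01, 0.14 and 0.55, so the numbers were not taken as pairs; a replicate block gave 0 called in all 3 comparisons. Of 116 results for named genes under these alternatives, 2137 of 2288 values kept direction and side of the threshold and 143 passed it in addition. Signs turned 8 times in 4 genes: with the covariates ARG2 was -0.053, CPS1 0.30 and LPGAT1 0.029, and LPGAT1 was 0.042 without LF 2 and HN 1. With single libraries left out LPGAT1 ranged from -0.13 to 0.042 and PIK3CA from -0.33 (without LF 3) to 1.30 (without LF 2). Causes were not tested. Genes near the floor of 3 counts, such as CPS1 and OTC, are limited by depth.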

Other observations

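At an unadjusted p under 0.05, of 22 tight junction genes none was higher and 1 was lower (median 0.67), of 22 goblet cell and mucus genes 1 and 1 (median 0.57), of 26 fatty acid oxidation genes none and none (median 0.01), and of 25 genes of cholesterol and fatty acid synthesis none and none (median 0.05), beside 7.07% higher and 6.26% lower over all genes. With the covariates the medians were -0.24 for tight junctions, -0.53 for goblet cells and mucus, -0.20 for fatty acid oxidation and -0.46 for cholesterol and fatty acid synthesis. In that model 2 goblet cell and mucus genes and 1 fatty acid oxidation gene were called lower, beside 1.96% of all genes. Of 15 heat shock genes 1 was higher and 2 lower (median -0.34). HSPA6, an inducible heat shock protein, had 8.09, 12.8 and 11.8 CPM in LN, against 5.16, 4.09 and 4.35 CPM in LF, while HSPE1, the mitochondrial chaperonin subunit, had 192, 117 and 138 CPM in LN, against 228, 193 and 254 CPM in LF. EGR3, an immediate early factor, averaged 2.91 CPM in LN and 0.866 CPM in LF without overlap, and NR4A3 of the same list ran the other way, at 6.05 CPM in LN and 17.2 CPM in LF.

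Of 20 named genes, the 10 smallest p upward and the 10 downward among genes with a symbol and a mean log2 CPM above 0, 7 lie on chromosome 15, which holds 3.88% of the tested genes. From STK17B to SF3B1 on that chromosome 7 of 8 tested neighbours were above 0 in colon, with 2.70 for STK17B, 2.36 for C15H2orf66, 1.64 for PGAP1, 1.35 for ANKRD44, 0.65 for SF3B1, 0.60 for HECW2, 0.15 for CCDC150 and -0.11 for GTF3C3 on the log2 scale. This stretch was noticed after the values were seen and carries no test. Reads of C15H2orf66 and its neighbour PGAP1 cannot be told apart if the counting ignored strand.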
